A study of Mus musculus with 4 samples.

Results

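The 9 platelet and megakaryocyte genes Pf4, Ppbp, Gp9, Gp1bb, Gp1ba, Itga2b, Gp5, Treml1 and Clec1b were followed by their symbols, as 9 of the 31053 genes in the count tables, through the cells of the embryonic aorta region. The tissue was the AGM region (aorta, gonads and mesonephros) taken from mice at embryonic day 10.5, and its cells were sorted as positive for the endothelial surface protein CD31 and negative for the blood cell protein CD45, and were profiled with the 10x Genomics 3' kit. Wild type (WT) gave 2 libraries and the genotype miR-223 -/- (KO), in which the microRNA miR-223 is deleted, gave another 2 at the same age. Values of the 4 libraries are listed with the WT pair first and then the KO pair, replicate 1 before replicate 2. The sources used here do not give the strain, the extent of the deletion or how many embryos were pooled. Nor is it stated whether the libraries of a genotype came from separate litters, so p-values measure the spread between these libraries only.

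Megakaryocytes are the large bone marrow cells that shed platelets, and in the embryo they arise in the yolk sac and fetal liver from progenitors shared with red cells. Platelets carry chemokines in their granules and adhesion receptors on their surface. Pf4 and Ppbp encode the granule chemokines. Gp1ba, Gp1bb, Gp9 and Gp5 encode the subunits of the receptor for von Willebrand factor, and Itga2b encodes CD41, the alpha chain of the fibrinogen receptor and an early marker of blood progenitors. Treml1 encodes a receptor stored in platelet granules. Clec1b encodes CLEC-2, the receptor for podoplanin through which platelets keep lymph vessels apart from veins. Mature miR-223 is abundant in myeloid cells and platelets.

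MiR-223-3p is shown with its seed (bases 2 to 8) in capitals, from RefSeq (GRCm38.p6, chrX:96242884-96242905, plus strand), because it is the molecule removed in the KO embryos. The seed match AACTGAC was present in an annotated 3' UTR of 1 of the 9 genes, Gp5, against 2043 of 21079 genes (9.69%) in the tables with an annotated 3' UTR. In Gp5 the match lies 3 bases after the stop codon, and the 30 bases that follow the stop codon are shown with the match in capitals (GRCm38, minus strand). A match of letters is a description and not evidence of a working site.
miR-223-3p: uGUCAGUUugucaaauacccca
Gp5 3' UTR start, chr16:30308121-30308150: tgaAACTGACcagagcattgtggacggggc

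The 250 bases before the start of a gene were searched on both strands for short motifs of the factors known to drive megakaryocyte genes. The letters were AGATAA or TGATAA for GATA factors, CGGAAG or AGGAAG for ETS factors and TGTGGT for RUNX factors. All 9 genes matched a RefSeq window (GRCm38.p6). A GATA motif was found before 3 of the 9 genes (Gp1ba, Gp5 and Clec1b), against 17.0% of 27025 windows. An ETS motif was found before 6 of 9, against 39.0% of windows, and a RUNX motif before 1 (Gp9), against 14.2%. Itga2b is among the 6 with an ETS motif. Its RefSeq window (chr11:102469884-102470133, minus strand) lies mostly inside the gene as placed by GENCODE M21 below, so the annotations differ in its start. The windows of 4 genes are shown with motifs of any of the 3 kinds in capitals: Pf4, the most counted of the 9 in megakaryocyte-like cells, Gp1ba and Gp5 with 2 GATA motifs each, and Clec1b, which differed most from the other 8 genes in where it was detected.
Pf4, chr5:90772185-90772434, plus strand: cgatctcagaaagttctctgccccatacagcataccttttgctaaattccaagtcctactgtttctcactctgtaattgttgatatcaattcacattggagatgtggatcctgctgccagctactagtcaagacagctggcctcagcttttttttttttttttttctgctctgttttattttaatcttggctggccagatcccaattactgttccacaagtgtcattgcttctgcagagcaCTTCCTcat
Gp1ba, chr11:70638872-70639121, plus strand: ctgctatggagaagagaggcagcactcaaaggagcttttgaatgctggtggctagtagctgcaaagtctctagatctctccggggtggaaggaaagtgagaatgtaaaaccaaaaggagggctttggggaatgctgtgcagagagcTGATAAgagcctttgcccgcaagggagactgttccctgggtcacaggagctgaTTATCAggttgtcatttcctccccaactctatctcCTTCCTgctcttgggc
Gp5, chr16:30310782-30311031, minus strand: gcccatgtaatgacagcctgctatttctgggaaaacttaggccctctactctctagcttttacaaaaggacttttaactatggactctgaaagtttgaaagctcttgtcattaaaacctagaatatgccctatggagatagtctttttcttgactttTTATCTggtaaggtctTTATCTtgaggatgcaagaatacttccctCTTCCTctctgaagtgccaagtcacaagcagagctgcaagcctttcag
Clec1b, chr6:129397047-129397296, plus strand: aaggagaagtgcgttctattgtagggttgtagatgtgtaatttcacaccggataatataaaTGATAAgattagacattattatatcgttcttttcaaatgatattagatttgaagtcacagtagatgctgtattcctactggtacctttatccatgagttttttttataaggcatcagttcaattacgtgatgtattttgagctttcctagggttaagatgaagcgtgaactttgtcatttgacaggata

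On the GRCm38 annotation (GENCODE M21), Ppbp (chr5:90768518-90770063) ends 2371 bases before Pf4 (chr5:90772435-90773383) on the same strand. Gp1ba lies at chr11:70639122-70642036, Itga2b at chr11:102453297-102470122, Gp9 at chr6:87778072-87779768, Gp5 at chr16:30307685-30310779 and Treml1 at chr17:48359916-48367176. Gp1bb (chr16:18620317-18622403) overlaps Sept5 on the same strand, so the split of reads between these genes is uncertain. Sept5, a septin gene, had 0, 0, 0 and 1 UMIs in the megakaryocyte-like cells of the 4 libraries, and 58, 82, 55 and 79 in the endothelial-like cells. Clec1b (chr6:129397297-129409335) overlaps the annotated span of Clec9a on the same strand. Clec9a, a dendritic cell receptor gene, had 4.44, 4.81, 5.10 and 4.57 CPM in endothelial-like cells. CPM is the depth-scaled level used throughout, a gene's UMIs (unique molecular identifiers, each marking 1 captured RNA molecule) as a share of all UMIs of the same cells, scaled to a fixed total. These are 3' tag counts and are not scaled by transcript length.

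The libraries held 95158639 and 181682389 UMIs for WT and 109713066 and 167542930 for KO. After the filters 2298, 6857, 4123 and 5853 cells were kept of 31521 barcodes in all, with medians of 30219, 18169, 20169 and 18649 UMIs per cell in the same order. Between 8 and 28 barcodes were shared by any pair of libraries. The endothelial label held for most cells: 75.2% and 87.5% of the WT cells and 72.6% and 85.9% of the KO cells fell in clusters named endothelial-like from 12 marker genes. F630028O10Rik, the host transcript of miR-223, had 0 and 0.0327 CPM in the endothelial-like cells of WT and 0.606 and 0.681 in those of KO, a log2 difference of 4.83 ± 0.61 (SE, edgeR quasi-likelihood adjusted p = 0.0344). In megakaryocyte-like cells it had 5.17 and 44.3 CPM (WT) against 151 and 371 (KO), a log2 difference of 3.57 ± 0.93 that did not pass (edgeR adjusted p = 0.9997). A 3' tag of the host transcript does not check the deletion itself, whose extent is not given.

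The megakaryocyte-like cells formed 1 of 27 clusters, with 97 cells: 30 and 20 (WT) and 16 and 31 (KO). The cluster was found with the 9 genes left out of the clustering genes and was named from 15 other megakaryocyte markers, among them Tubb1, Gp6 and Itgb3. All 15 had UMIs in each library. Its 10 leading genes by fold included Pf4, Ppbp, Treml1 and Gp5. The 15 markers together had 1652 and 3995 CPM in the WT cells and 2498 and 4959 in the KO cells, against 67.3 to 76.7 in endothelial-like cells of the 4 libraries. Of the 12 endothelial markers none was at 0 in the cluster, with sums of 484 to 621 CPM. Of 10 erythroid markers 1 or 2 were at 0 (Slc4a1, and Alas2 outside WT replicate 1), and the sum was 496 and 337 CPM for WT, below both KO libraries with 1817 and 937. In the cells with 8 or more markers, described next, the erythroid sum was 290, 335, 1983 and 496 CPM. Of 14 macrophage or myeloid markers 7 to 11 were at 0, including Cx3cr1, Adgre1 and the 3 C1q genes in each library, and the sum was 35.1 to 146 CPM. Ptprc, which encodes CD45, the protein that the sort selected against, had 2 UMIs in the whole cluster. The part of these other transcripts in the values below was not tested.

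The number of markers detected divided the cluster. Counting how many of the 15 markers had a UMI, 70 cells had 8 to 15 and 27 cells had 2 to 6, with none at 7. This division was made after seeing the counts. The cells with few markers were led by Mt2, Ermap, Klf1 (an erythroid transcription factor) and Kcnn4, with 259 Klf1 CPM against 7.72 in the cells with 8 or more markers, and they are given no name here. The cells with few markers held 89 of the cluster's 49693 Pf4 UMIs. They were not all alike. Shallow cells of 3411 (KO replicate 1), 4433 and 5066 UMIs (both KO replicate 2) had no Klf1 UMI. These had 5, 6 and 6 of the 9 genes and 21, 0 and 60 Pf4 UMIs. Median depth was 45580 UMIs with few markers and 39921.5 with 8 or more. The part of depth in the number of markers detected was not tested. The share of cells with few markers differed between libraries, at 15 of 30, 2 of 20, 7 of 16 and 3 of 31 megakaryocyte-like cells. Levels are therefore given for the 70 cells with 8 or more markers and then for the whole cluster. The plot of Pf4 in each cell against its number of markers shows both sets of cells.

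**Figure D1:**
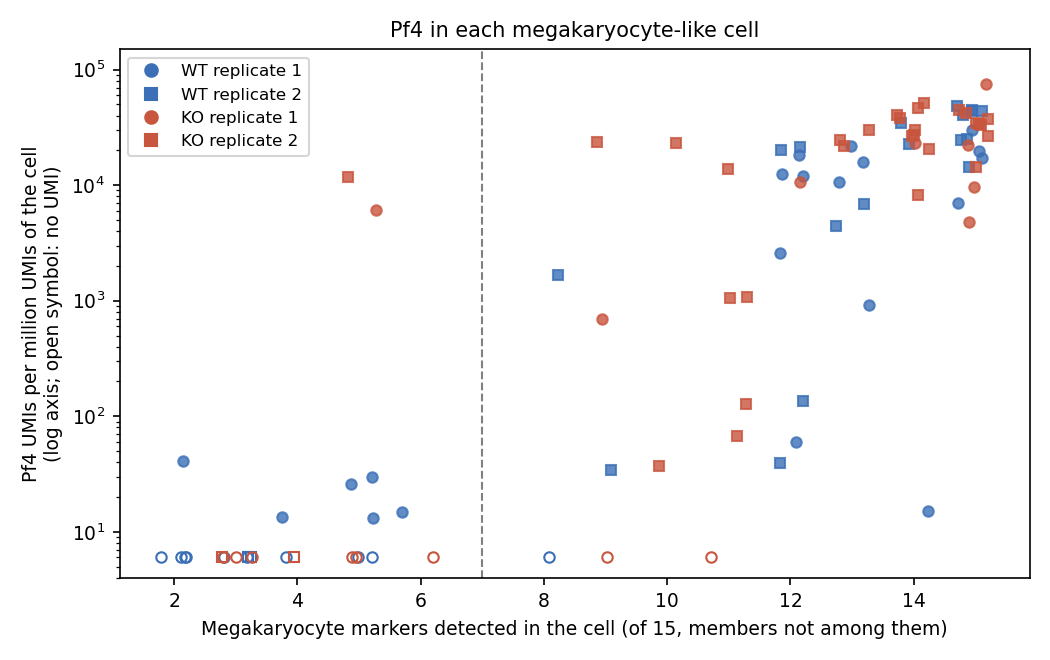
Each symbol is 1 of the 97 megakaryocyte-like cells, with the number of the 15 markers detected on the x axis and Pf4 CPM of the cell on a log y axis. Open symbols at the lower edge are cells without a Pf4 UMI, and the dashed line at 7 markers divides the 27 cells with few markers from the 70 with 8 or more, of which 67 had Pf4.

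Pf4 was the most abundant of the 9 transcripts in megakaryocyte-like cells. In the cells with 8 or more markers it had 10788 and 21263 CPM (WT) and 11450 and 24322 (KO). It was detected in 14 of 15, 18 of 18, 7 of 9 and 28 of 28 of these cells. Both libraries numbered 1 were low and both numbered 2 were high, so that the genotypes overlapped. From cell to cell Pf4 ranged from 0 to 75177 CPM, with a median of 20414 and quartiles of 4532 and 30180. In the whole cluster the levels were 4940 and 18434 (WT) and 7489 and 23304 (KO), detected in 66.7%, 90%, 50% and 93.5% of cells.

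Ppbp, the other chemokine gene, was found in fewer cells than Pf4. With 8 or more markers, 6 of 15 and 11 of 18 WT cells and 3 of 9 and 19 of 28 KO cells had a Ppbp UMI, and its level was 413, 1748, 597 and 1355 CPM. The Ppbp-positive cells were those rich in Pf4. All 39 had at least 7011 Pf4 CPM, with a median of 29860, whereas the 31 cells without Ppbp had a median of 1665 and reached from 0 to 27180. The same order was seen in each library, where median Pf4 with and without Ppbp was 12175 and 2572, 34376 and 1665, 23027 and 2731, and 33203 and 1081. Median depth with and without Ppbp was 44128 and 45208 UMIs, 39220 and 43926, 25275 and 38343, and 38331 and 27291, so cells without Ppbp were the deeper in 3 libraries and the shallower in KO replicate 2. The part of depth in the detection of Ppbp was not tested. Cells without Ppbp also had fewer of the 15 markers, with a median of 12 against 15, and lower Itga2b, with a median of 270 against 673 CPM.

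The receptor subunit genes were detected together in most of these cells. Among the 70 cells with 8 or more markers, Itga2b and Treml1 were detected in all 70, Gp9 in 69, Gp5 in 67, Clec1b in 65, Gp1ba in 58 and Gp1bb in 50. Gp9 had 204 and 448 CPM (WT) and 420 and 467 (KO), and Gp5 had 280 and 434 (WT) and 447 and 507 (KO). For both genes WT replicate 1 was the lowest library and the other 3 lay close together. For Gp5 both KO libraries lay above both WT libraries, whereas for Gp9 the genotypes overlapped. Gp1ba had 80.4 and 119 (WT) and 92.2 and 165 (KO). Gp1bb had 39.0 and 97.6 (WT) and 37.6 and 91.4 (KO), again low in both libraries numbered 1. Itga2b had 471, 521, 574 and 653 CPM in the same order, and both KO libraries lay above both WT libraries, as for Gp5. The share of all genes with the genotypes apart was not taken in these cells. In the whole cluster both KO libraries lay on 1 side of both WT libraries for 21.2% of the 7047 genes tested. Treml1 had 562 and 764 (WT) and 645 and 695 (KO), and Clec1b had 479 and 1010 (WT) and 789 and 941 (KO), with overlapping genotypes. In 7 of the 9 genes, all but Gp5 and Itga2b, both libraries numbered 1 were below both numbered 2, as they were for 21.6% of the 6499 genes tested in these cells.

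In the whole cluster, with the cells of few markers included, Ppbp had 190 and 1515 CPM (WT) and 388 and 1295 (KO), and Clec1b had 220 and 877 (WT) and 526 and 914 (KO). Gp9 had 96.0 and 388 (WT) and 277 and 450 (KO), Gp1ba 36.8 and 103 (WT) and 62.1 and 158 (KO), and Gp1bb 17.8 and 84.6 (WT) and 24.4 and 87.4 (KO). Treml1 had 262 and 662 (WT) and 437 and 673 (KO), Gp5 135 and 377 (WT) and 302 and 495 (KO), and Itga2b 241 and 453 (WT) and 435 and 641 (KO). WT replicate 1, where 15 of 30 cells had few markers, was the lowest library for each of the 9 genes. Both libraries numbered 1 were below both numbered 2 for 9 of 9 genes, against 25.4% of the 7047 genes tested in the cluster.

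Few cells outside the cluster carried the genes together. Of the 70 cells with 8 or more markers 69 had UMIs of at least 4 of the 9 genes and 34 had all 9, with a median of 8. In the cells with few markers Itga2b was again common, at 80%, 50%, 100% and 100% of cells in the 4 libraries, while Pf4 was found in 40%, 0%, 14.3% and 33.3% and Gp1bb in none. Among 314 hemogenic or early blood-like cells 8 had at least 4 of the genes, and among 15746 endothelial-like cells 49 did (0.311%). There were 13 kept cells outside the cluster with 8 or more of the 15 markers. No cell outside the megakaryocyte-like cluster had all 9 genes. When each cell was thinned to 5000 UMIs, at least 4 genes were found in 55 of 68 cells with 8 or more markers (80.9%), in 1 of 313 hemogenic or early blood-like cells and in 7 of 15576 endothelial-like cells (0.0449%).

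**Figure D2:**
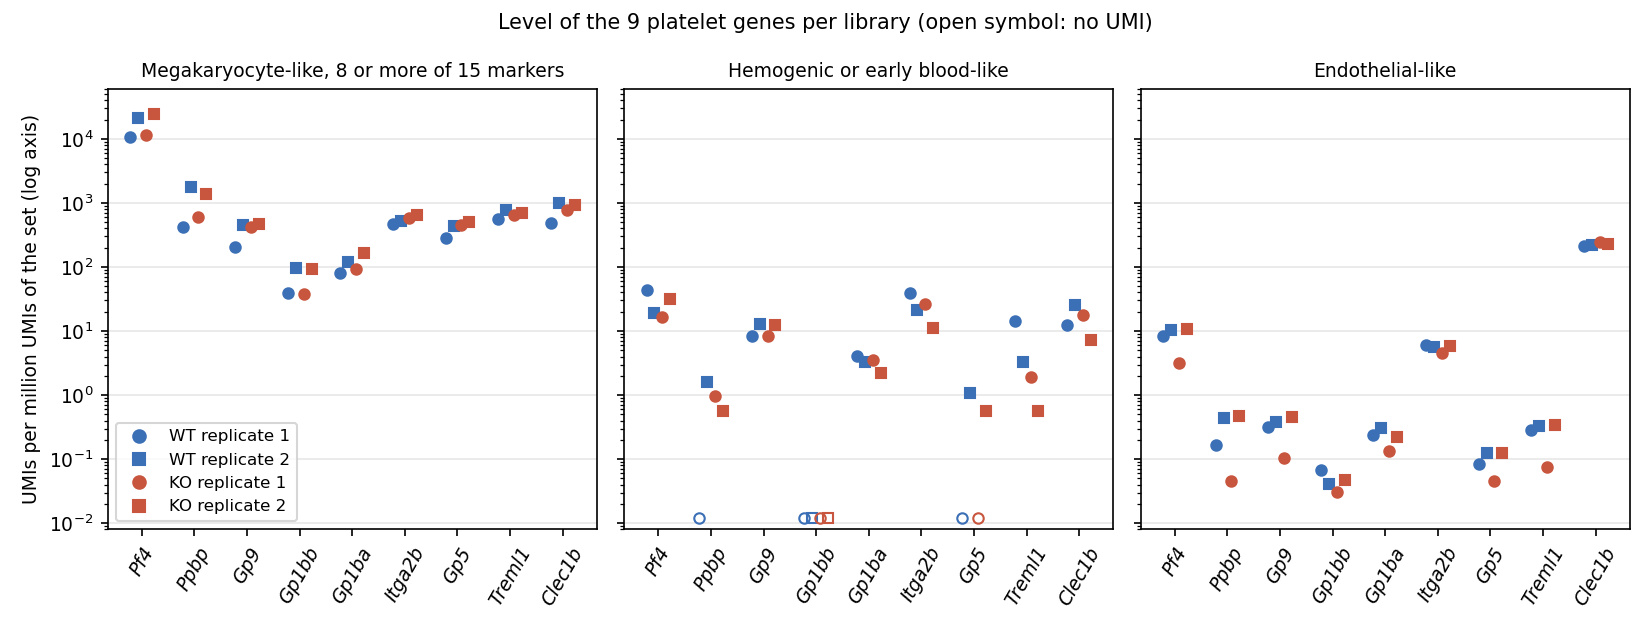
The level of each of the 9 genes is drawn on a log axis as CPM of the set, with 1 symbol per library, for megakaryocyte-like cells with 8 or more markers, hemogenic or early blood-like cells and endothelial-like cells. Open symbols at the lower edge stand for no UMI, as for Gp1bb in the hemogenic set, and Clec1b at 213 to 244 in endothelial-like cells stands above the other 8 genes there.

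The hemogenic or early blood-like cluster was led by the blood regulator Spi1, Lyz2, Nupr1, Gfi1 and Runx1, with the myeloid gene Mpo among its 10 leading genes, and held 13 and 81 WT and 140 and 80 KO cells. Of the 9 genes Itga2b, Pf4, Clec1b and Gp9 were the most detected there, and Gp1bb was at 0. Itga2b was detected in 46.2% and 30.9% of the WT cells and 36.4% and 16.3% of the KO cells, at 39.0, 21.6, 26.7 and 11.1 CPM. Pf4 had 43.2 and 18.9 CPM (WT) and 16.8 and 32.2 (KO), and was detected in 23.1%, 21%, 16.4% and 31.3% of cells. In WT replicate 1 a lone cell held 19 of the 21 Pf4 UMIs, and without it the level was 4.97. The genotypes overlapped for both genes.

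Gp9 was the most detected of the 4 genes for the von Willebrand factor receptor in this cluster. It was detected in 15.4% and 19.8% of the WT cells and 10.7% and 21.3% of the KO cells, whereas Gp5 was detected in 2 of the 314 cells and Gp1ba in 21. There were 45.5 Gp9 UMIs per 100 Pf4 UMIs in the hemogenic cluster, against 2.08 in megakaryocyte-like cells with 8 or more markers and 3.86 in endothelial-like cells. Itga2b followed the same direction, with 97.6, 3.07 and 63.1 UMIs per 100 Pf4 UMIs in these 3 sets, whereas Ppbp did not, with 4.19, 5.98 and 3.76. Of the 68 hemogenic cells with Pf4, 21 also had Gp9 (30.9%) and 33 had Itga2b (48.5%), against 29 (11.8%) and 62 (25.2%) of the 246 cells without Pf4. These counts pool the 4 libraries without thinning, and the part of depth in the joint detection was not tested. Of the 15 megakaryocyte markers Tubb1, Gp6 and Cd226 were at 0 in the cluster in each library, and the sum of all 15 was 204 to 384 CPM. The 14 macrophage or myeloid markers summed to 164 and 256 (WT) and 153 and 475 (KO), and their part in these values was not tested.

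Endothelial-like cells with a Runx1 UMI, which number 56 and 172 (WT) and 75 and 141 (KO), had few UMIs of the receptor subunit genes. Gp9 was found in 3 of these 444 cells (0.237 CPM), Gp5 in 2, Gp1ba in 4 and Gp1bb in none. With 0 of 444, counting error allows a share of up to 0.676% of cells with a Gp1bb UMI, which does not limit the cells that express the gene. Itga2b was detected in 25% and 7.56% of the WT cells and 12% and 5.67% of the KO cells, against 15.9%, 10.3%, 8.58% and 10.8% of all endothelial-like cells. Clec1b had 227 and 218 CPM (WT) and 225 and 203 (KO).

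Clec1b was an endothelial transcript as well as a megakaryocyte one. Its level in endothelial-like cells was 213 and 220 CPM (WT) and 244 and 226 (KO), with UMIs in 85.2%, 77.0%, 79.0% and 77.2% of cells. Of all Clec1b UMIs in the kept cells 96.1% lay in endothelial-like cells and 2.69% in megakaryocyte-like cells, whereas 92.2% of Pf4, 95% of Ppbp, 95.2% of Gp5, 90.7% of Treml1, 89.0% of Gp1bb, 80.9% of Gp9 and 74.4% of Gp1ba UMIs lay in megakaryocyte-like cells. Itga2b was divided, with 50.4% in endothelial-like and 41.8% in megakaryocyte-like cells, the former being 15746 cells and the latter 97. Over 90 sums of cluster by library, the level of Clec1b had a Pearson r of 0.25 with the mean of the other 8 genes, on the log2(CPM + 1) scale, against 0.80 to 0.92 for each of the other genes. The 90 points share libraries, and 3 of them are megakaryocyte-like.

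Within the endothelium Clec1b differed widely between clusters. It was highest in cluster 6, at 439 to 519 CPM over the 4 libraries, and cluster 4, at 367 to 408, both led by Foxq1. Cluster 7, led by Oit3, Lyve1, Mrc1 and, among others, the scavenger receptor gene Stab2, had 239 to 339. In cluster 10, led by Gja5 (a connexin gene of arteries), Tmem100 and Htra1, it was 10.2 to 14.3, and in cluster 18, led by Pdlim3 and Gata4, 13.2 to 31.5. Cluster 9, also led by Gja5, had 62.1 to 103. Clusters 6 and 4 did not overlap each other or cluster 7 in any library, and neither did clusters 9 and 18. The ranges of clusters 18 and 10 overlapped, as did those of 7, 1 and 8. Within each library cluster 7 was above cluster 8. Itga2b had another order. It was highest in cluster 7, at 12.9 to 21.4 CPM, with 52% and 25% of WT cells and 34.8% and 37.2% of KO cells positive. Cluster 18 followed with 8.53 to 13.3, a range that overlaps that of cluster 7, but it was below cluster 7 within each library. The remaining clusters had means of at most 8.80.

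Gp1ba, at 0.236 CPM over all endothelial-like cells, had 12, 33 and 21 of its 83 UMIs in clusters 18, 7 and 10. It was detected in 12 of 230 cells of cluster 18 (5.22%), 32 of 982 of cluster 7 (3.26%) and 21 of 738 of cluster 10 (2.85%), and in 2 of 1484 cells of cluster 4. These counts are small, with 1 to 13 UMIs per library in each of clusters 18, 7 and 10. The clusters are groups of transcriptionally similar cells, so these orders are descriptions and were not tested.

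**Figure D3:**
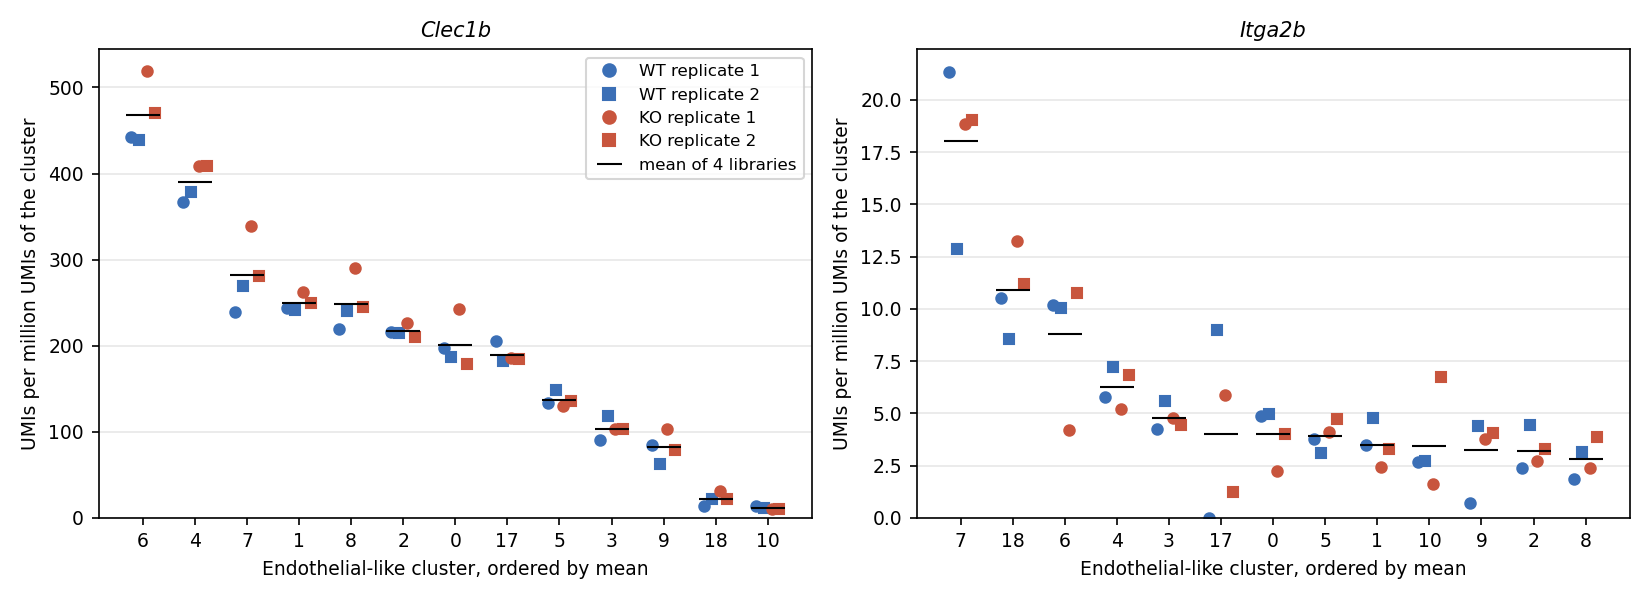
Clec1b (left) and Itga2b (right) are drawn as CPM of each endothelial-like cluster present in all 4 libraries, with 1 symbol per library and a bar at the mean of the 4. Clec1b falls from 468 in cluster 6 to 11.6 in cluster 10, and Itga2b is highest in cluster 7 at a mean of 18.0.

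Outside the megakaryocyte-like cluster Pf4 was widespread but thin. Between 90% and 93.4% of the Pf4 UMIs of the kept cells lay in the cluster in each library. Of the 19034 other cells 1714 had a Pf4 UMI, and 82.0% of those had exactly 1. The share of endothelial-like cells with a Pf4 UMI was 18.1% and 7.95% for WT and 5.01% and 10.8% for KO. Thinned to 5000 UMIs per cell, the shares were 3.56% and 2.26% (WT) and 1.21% and 3.23% (KO), and the genotypes overlapped. Primordial germ cell-like cells, a type not known to make Pf4, with a median depth of 41581 UMIs against 19911.5 in endothelial-like cells, had 31.1% and 6.85% (WT) and 3.41% and 14.7% (KO) unthinned, and 6.67%, 0.704%, 0% and 2.05% thinned. With all libraries together the thinned share was 2.51% in endothelial-like, 2.10% in mesenchymal-like, 1.67% in germ cell-like, 1.42% in neural-like and 0.685% in erythroid-like cells. Of the classes outside the megakaryocyte-like cluster the hemogenic or early blood-like cells were the highest, at 6.71% (21 of 313, 95% exact binomial interval 4.201 to 10.1%, against 2.27 to 2.77% for endothelial-like cells), with 15.4%, 3.75%, 7.14% and 7.50% in the 4 libraries. After thinning, the endothelial share was below that of germ cell-like cells in WT replicate 1 and above it in the other 3 libraries, and with all libraries together the intervals overlapped (2.27 to 2.77% against 0.673 to 3.40%). These intervals pool the cells of the 4 libraries and cover counting error only, not the spread between libraries. The source of the Pf4 UMIs outside the cluster was not tested.

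The level of Pf4 in endothelial-like cells differed between libraries. It was 8.26 and 10.4 CPM (WT) and 3.20 and 10.7 (KO), and KO replicate 1, the lowest, was also the library with the lowest Pf4 over all kept cells (119, 110, 40.5 and 212 CPM). KO replicate 2 was the highest in both, whereas the WT libraries were in opposite order. Free RNA as a source was not tested. A few cells held much of it: 41 of the 15746 endothelial-like cells had 10 or more Pf4 UMIs and carried 41.1% of the Pf4 UMIs of the class, and 24 of the 41 had at least 4 of the 9 genes. Without them the level was 6.69 and 4.99 (WT) and 2.58 and 6.22 (KO). Among mesenchymal-like cells 11 such cells carried 88.3% of the Pf4 UMIs, with 386 in the highest cell, and 10 of the 11 had at least 4 of the genes. Their median depth was 24751 UMIs in the endothelial-like set and 21813 in the mesenchymal-like set. Doublets that escaped the call were not tested as their source.

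**Figure D4:**
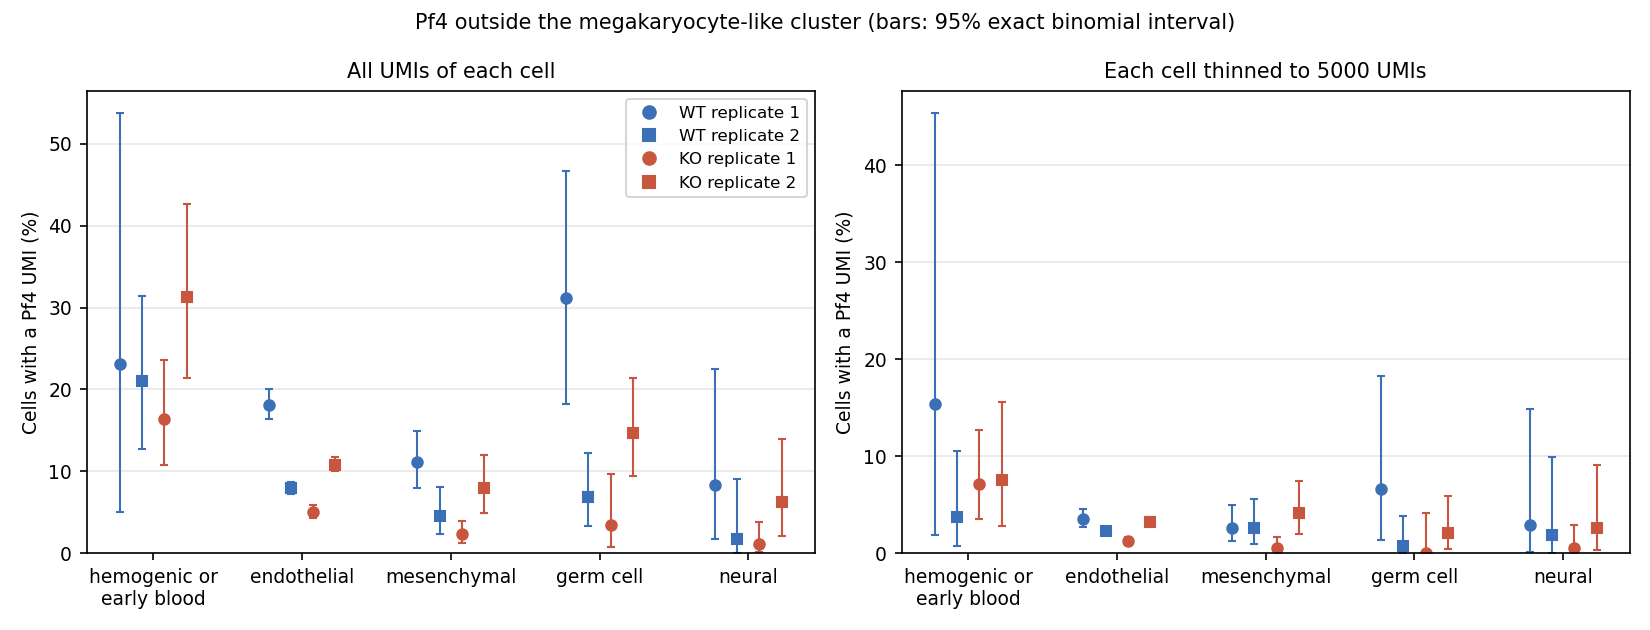
Percent of cells with a Pf4 UMI in 5 classes outside the megakaryocyte-like cluster, 1 symbol per library with its 95% exact binomial interval, over all UMIs (left) and with each cell thinned to 5000 UMIs (right). The endothelial shares lie between 5.01% and 18.1% over all UMIs and between 1.21% and 3.56% after thinning, which itself removes UMIs. Those of germ cell-like cells lie between 3.41% and 31.1% and between 0% and 6.67%.

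None of the 9 genes passed the test between genotypes, run across all genes without a replicate block, in any of the 3 sets of cells. In megakaryocyte-like cells edgeR called none of 7047 genes at an adjusted p under 0.05, so that 0% were called over all genes and 0 of 9 members, with 44 higher and 31 lower at an unadjusted p under 0.05. DESeq2 also called 0, with 43 unadjusted. Other settings called more than 0 genes in these cells, and their counts are given in the section on processing below. Itga2b had the smallest p of the members: 241 and 453 CPM (WT) and 435 and 641 (KO), with WT replicate 2 above KO replicate 1, gave a log2 difference of 0.65 ± 0.40 (SE, n = 2 and 2, edgeR adjusted p = 0.9997). For Pf4 the difference was 0.41 ± 0.76 and for Ppbp -0.0027 ± 0.91, both with the same adjusted p. Gp5, the member with the miR-223 seed match shown above, had 135 and 377 CPM (WT) and 302 and 495 (KO), a log2 difference of 0.66 ± 0.53 (edgeR adjusted p = 0.9997). With 1 library left out at a time, the difference ran from 0.073 to 1.65 for Gp5 and from 0.24 to 1.23 for Itga2b. Standard errors of the 9 differences ran from 0.40 for Itga2b to 0.91 for Ppbp. All 9 members had overlapping genotypes in the whole cluster. There both KO libraries lay on 1 side of both WT libraries for 21.2% of the 7047 genes tested. For Gp5 and Itga2b the genotypes were apart in the cells with 8 or more markers, with both KO libraries above both WT libraries. The share of all genes apart was not taken in those cells, which were set off after seeing the counts. The differences given here are for the whole cluster, with the cells of few markers included. Without WT replicate 2, Ppbp and Clec1b were called, with log2 differences of 2.24 and 1.79 (edgeR adjusted p = 0.00339 and 0.0496), where 46 of 8070 genes were called (0.57%).

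Other genes of platelet biology gave no called difference either. Of 17 genes of platelet receptors and signalling 15 were tested and all 15 had a positive log2 difference, with a median of 0.52 against 0.00 over all genes, and none was called. P2rx1, an ATP receptor gene, had 50.6 and 120 CPM (WT) and 82.1 and 170 (KO) (log2 0.63 ± 0.55 SE). Of 20 granule and cytoskeleton genes 16 of 19 tested were positive, with a median of 0.44, and Tubb1, the platelet tubulin gene, had 16.7 and 53.7 (WT) and 31.1 and 77.7 (KO). Of 14 megakaryocyte transcription factor genes 12 were positive, with a median of 0.22. WT replicate 1, in which 15 of 30 cells had few markers, was the lowest library for P2rx1 and Tubb1. Among the cells with 8 or more markers the counts of positive differences were 12 of 15, 14 of 19 and 7 of 14, with medians of 0.13, 0.18 and -0.02, and none was called. The direction of the lists rested on single libraries. Without WT replicate 1 the positive differences in the whole cluster numbered 5 of 15, 3 of 19 and 5 of 14, with medians of -0.06, -0.09 and -0.06. Without KO replicate 2 they numbered 2 of 15, 7 of 19 and 5 of 14, with medians of -0.34, -0.14 and -0.16. Without WT replicate 2 all differences were positive, with medians of 1.31, 1.22 and 0.70, and 2 of 16, 3 of 19 and 1 of 14 genes were called, where 0.57% of all genes were. Without KO replicate 1 the medians were 0.78, 0.75 and 0.45, and none was called. In endothelial-like cells the positive differences numbered 4 of 12, 7 of 16 and 8 of 12 in these 3 lists, with medians of -0.12, -0.04 and 0.09, and again none was called. Without KO replicate 1 they numbered 7 of 12, 10 of 17 and 7 of 13, with medians of 0.02, 0.02 and 0.03.

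In the cells with a Runx1 UMI of the endothelial-like and hemogenic clusters together (68 and 240 WT, 202 and 210 KO cells), 2 of 11037 genes were called (0.0181%, or 0.00906% in each direction), and none of the 4 members that could be tested. The other 5, Ppbp, Gp1bb, Gp1ba, Gp5 and Treml1, had too few UMIs to pass the filter. Clec1b had 191 and 163 CPM (WT) and 102 and 146 (KO). Both KO libraries were lower, with a log2 difference of -0.50 ± 0.20 (SE, edgeR adjusted p = 0.9999, unadjusted 0.0305). The set mixes endothelial-like cells, where Clec1b is high, with hemogenic cells, where it was 12.3 and 25.4 (WT) and 17.8 and 7.21 (KO). KO replicate 1 had the most hemogenic cells (140 of 4123 kept cells, 3.40%, against 0.566%, 1.18% and 1.37% in the other libraries). Within the set itself, endothelial-like cells made up 56 of 68 for WT replicate 1 and 172 of 240 for WT replicate 2. Their share was lowest for KO replicate 1, with 75 of 202, while KO replicate 2 had 141 of 210. Among the Runx1-positive endothelial-like cells alone the Clec1b levels of the genotypes overlapped, as given above. The part of the cell mix in the Clec1b difference was not tested. Gp9 had 1.74 and 3.32 CPM (WT), below the 5.11 and 4.15 of KO, whereas within the hemogenic cluster its levels overlapped (8.22, 13, 8.26 and 12.2 CPM). Pf4 had 12.9 and 10.3 (WT) and 10.8 and 28.1 (KO). Thus 2 of the 4 members tested, Clec1b and Gp9, had both KO libraries on 1 side of both WT libraries, as did 29.6% of the 11037 genes. Leaving out KO replicate 1 made Pf4 called at 1.34 (edgeR adjusted p = 0.0308), where 18 of 11457 genes were called (0.157%). Leaving out KO replicate 2 made Clec1b called at -0.82 (edgeR adjusted p = 0.0397), where calls rose to 232 of 11345 genes (2.04%). In the 3 lists above 6 of 13 receptor and signalling genes, 10 of 15 granule and cytoskeleton genes and 11 of 13 transcription factor genes were positive, none of them called, with medians of -0.01, 0.19 and 0.37. Without KO replicate 2, the library left out for Clec1b above, 2 of 13, 1 of 17 and 1 of 13 were called, where 232 of all 11345 genes were (2.04%), and the medians were 0.25, 0.50 and 0.56. Without WT replicate 1, WT replicate 2 or KO replicate 1 none was called, with medians of 0.05, 0.38 and 0.40, then -0.19, 0.49 and 0.32, then -0.12, 0.24 and 0.20. With no filter on low counts 1 receptor gene and 1 transcription factor gene were called, of 94 called among 17236 genes (0.545%). Vwf, which encodes von Willebrand factor, had 86.2 and 71.1 CPM (WT) and 131 and 112 (KO), a log2 difference of 0.64 ± 0.17 (edgeR adjusted p = 0.9999). In all cells of the hemogenic cluster the positive counts were 6 of 13, 7 of 16 and 5 of 14, with medians of -0.05, -0.02 and -0.10.

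In endothelial-like cells 18 of 14644 genes were called (0.123%, with 0.0546% higher and 0.0683% lower in KO), and none of the 8 members tested. Gp1bb, with 16 UMIs in 15746 cells, did not pass the filter. Clec1b was slightly higher in both KO libraries (log2 difference 0.13 ± 0.12 SE, edgeR adjusted p = 0.99997). Gp1ba was lower in both, with 0.236 and 0.303 CPM (WT) and 0.136 and 0.221 (KO) (log2 difference -0.57 ± 0.42 SE, edgeR adjusted p = 0.99997). The other 6 members had overlapping genotypes, so that 2 of 8 had both KO libraries on 1 side of both WT libraries, against 19.7% of the 14644 genes. Leaving out KO replicate 1 turned the sign of 6 of the 7 negative differences. Without KO replicate 2 Pf4 was called lower in KO, at -1.53 (edgeR adjusted p = 4.4e-05), where 100 of 14614 genes were called (0.684%). KO replicate 1, the remaining KO library, had the least Pf4 of the 4.

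**Figure D5:**
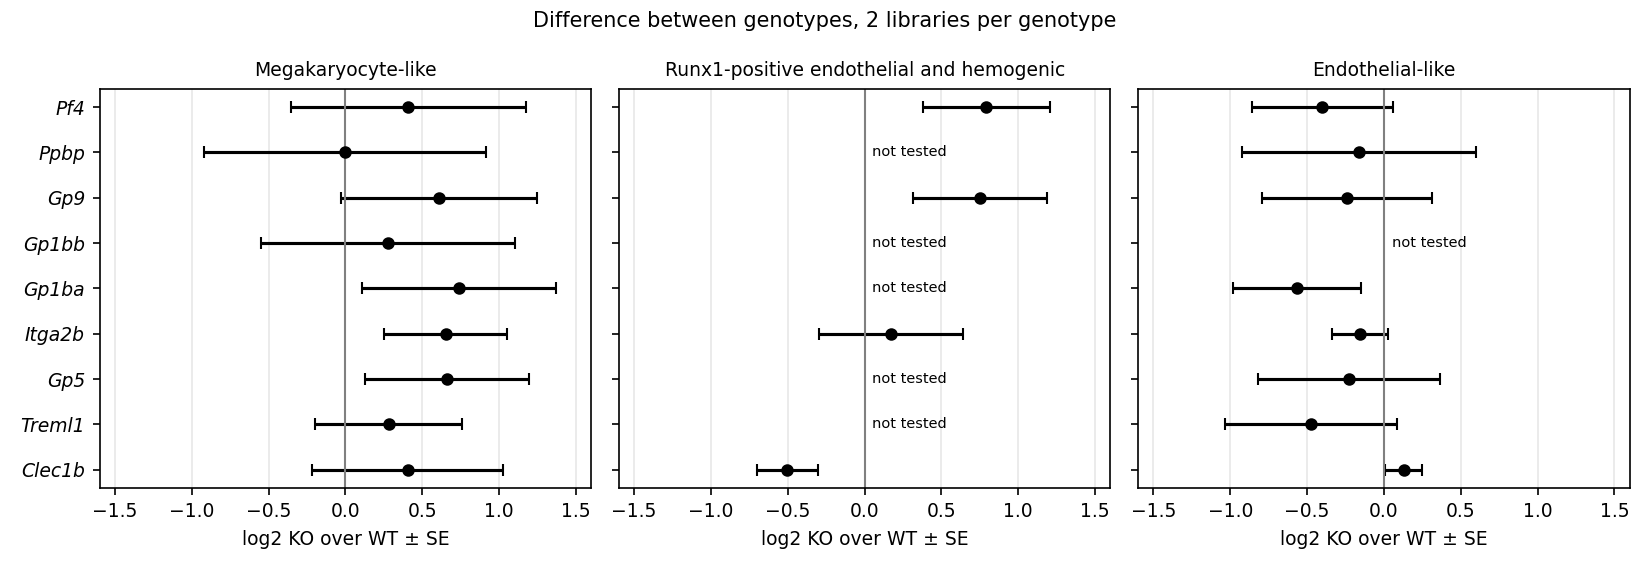
Log2 difference of KO over WT with its standard error for each of the 9 genes in megakaryocyte-like cells, Runx1-positive endothelial and hemogenic cells, and endothelial-like cells, from 2 libraries per genotype. Genes with too few UMIs are marked as not tested, and none of the points drawn passed the adjusted threshold of 0.05.

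The share of megakaryocyte-like cells did not separate the genotypes. It was 1.31% (95% exact binomial interval 0.882 to 1.86%) and 0.292% (0.178 to 0.450%) in WT and 0.388% (0.222 to 0.629%) and 0.530% (0.360 to 0.751%) in KO. The difference of -0.340 percentage points had an exact two-sided permutation p of 1 over 2 libraries against 2, a design that cannot give a p below 0.33. WT replicate 1 was the highest library, and without it the difference was 0.167. Counting only cells with 8 or more markers the shares were 0.653% and 0.263% (WT) and 0.218% and 0.478% (KO). In KO replicate 2, 15 further barcodes of this cluster had been called doublets, against 0, 3 and 0 in the other libraries, and with doublets kept the difference was -0.240. The share of endothelial-like cells with a Pf4 UMI after thinning differed by -0.690 percentage points (exact permutation p = 0.667), and by 0.319 without KO replicate 1.

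The genes whose pattern was most like that of the 9, by Pearson r of their level with the mean of the members over the 90 sums of cluster by library, were Tbxas1 (thromboxane synthase, r = 0.94), Gp6 (a collagen receptor, 0.93), F2rl2 (a thrombin receptor, 0.93), Rgs18 (0.92), Kcnj5 (0.92), Il10ra (0.92), Ly6g6f (0.91) and Serpinb2 (0.91). Gp6, F2rl2 and Rgs18 were also among the 15 markers that named the cluster. Between 77.7% and 96.6% of the UMIs of each of these 8 genes lay in the megakaryocyte-like cluster.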

How the data were processed

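Cells of 4 libraries (2 WT, 2 KO) were profiled by 3' single-cell RNA-seq. As deposited, the matrices hold raw UMI counts that Cell Ranger 3.1.0 wrote for each gene and barcode, per the file headers, and the submitters' processing notes also name Seurat 4. The genome build, the annotation and the strand setting of the counting were not given in the sources used here. Positions are those of GENCODE M21 on GRCm38, and promoter windows and miR-223 come from RefSeq on GRCm38.p6.

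Cells were barcodes with 1000 genes or more and a mitochondrial share of UMIs below 10%. A doublet score was computed from 2 simulated doublets per cell, in the pool below 20% mitochondrial UMIs, and the top-scoring barcodes were removed at 0.8% per 1000 barcodes of a library (3.13% to 8.95%). Cells were clustered by the Leiden method (igraph 0.11.9, leidenalg 0.10.2; 2000 variable genes without the 9 genes, 40 components, 20 neighbours, resolution 1) into 27 clusters, named from marker lists. A minimum mean log2 fold of 0.8 for a name, the division of the megakaryocyte-like cluster at 8 of 15 markers and the cut at 10 Pf4 UMIs were chosen after seeing the data. Clusters are groups rebuilt here and may differ from those of the study. Levels are UMIs of a gene over all UMIs of the same cells. Shares of cells were also taken with each cell thinned to 5000 UMIs, shallower cells being left out.

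For each class the UMI counts of a library were added up, with at least 10 cells per library, and compared by edgeR 4.0.16 (R 4.3.3; filterByExpr, TMM, quasi-likelihood test, Benjamini-Hochberg adjusted p under 0.05 over all genes tested). Standard errors were derived from the fold change and its F statistic. Shares were compared by exact two-sided permutation over libraries (scipy 1.17.1, Python 3.11.15). Intervals are 95% Clopper-Pearson intervals, and a count of 0 allows up to 3 counts. Both cover counting error only. The edgeR test was also run on counts simulated from the endothelial-like means, which does not cover the megakaryocyte-like or Runx1-positive sets. Alternatives were other normalization, no filter on low counts, DESeq2 1.42.0, a replicate block, leaving out each library, keeping doublets, other depths and other definitions of the cell sets.

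The 9 genes are named whatever their values. From the 3 other lists the 2 genes with the smallest p were eligible when none was called, and the genes most alike were the 8 others with the highest Pearson r over sums of at least 20 cells. The members and lists were chosen with earlier results of these data known.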

Additional observations from a re-analysis of the deposited data

Results flagged for a closer look

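Clec1b had opposite directions in overlapping sets of cells. In endothelial-like cells both KO libraries lay above both WT libraries, with a log2 difference of 0.13, and in Runx1-positive endothelial and hemogenic cells both KO libraries lay below both WT libraries, with a log2 difference of -0.50. The difference between these values was not tested, and 444 of the 720 Runx1-positive cells are themselves among the endothelial-like cells. Within those 444 cells the level was 227 and 218 CPM (WT) and 225 and 203 CPM (KO), with overlapping genotypes. The remaining Runx1-positive cells belong to the hemogenic cluster, in which Clec1b was 7.21 to 25.4 CPM. Their part in the difference was not tested.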

How the results depend on the processing

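Of 200 values for single members under alternatives, 167 kept their direction and their side of the threshold, 28 changed sign (1 of them, Ppbp without WT replicate 2, then passing the threshold) and 5 passed the threshold that the value in the report did not. Counts of called genes in endothelial-like cells (18) were 82 with no filter on low counts and 41 by DESeq2, and ran from 17 to 100 when 1 library was left out (38, 50, 17 and 100 without WT replicates 1 and 2, then KO replicates 1 and 2). In megakaryocyte-like cells (0) they were 10 with no filter, 0 by DESeq2, 2 for cells with 8 or more markers, and 6, 46, 16 and 10 without these libraries in the same order. In Runx1-positive cells (2) they were 94 with no filter, 6 by DESeq2, and 7, 15, 18 and 232. With 1 library left out, the lone library of a genotype is assumed to vary like the other pair.

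Without 1 library, the log2 differences in endothelial-like cells ran from -1.53 to 0.21 for Pf4 (called without KO replicate 2), -2.76 to 0.77 for Ppbp, -1.71 to 0.37 for Gp9, -0.34 to 0.0027 for Itga2b, -0.42 to 0.22 for Gp5 and -1.999 to 0.13 for Treml1. In megakaryocyte-like cells they ran from -0.69 to 1.72 for Pf4, -1.18 to 2.24 for Ppbp and -0.29 to 1.79 for Clec1b (the highest of both called without WT replicate 2), -0.10 to 1.999 for Gp9, -1.04 to 1.80 for Gp1bb, -0.17 to 1.69 for Gp1ba and -0.26 to 1.16 for Treml1. In Runx1-positive cells they ran from -0.10 to 1.34 for Pf4 (called without KO replicate 1) and -0.86 to 0.78 for Itga2b, and Clec1b was called without KO replicate 2 at -0.82. With no filter Ppbp in megakaryocyte-like cells was 0.0055. In all cells of the hemogenic cluster Pf4, Gp9 and Itga2b were -0.16, -0.25 and -0.45. The cause of these changes was not tested beyond the fewer libraries or other cells of each setting.

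The difference in the share of megakaryocyte-like cells ran from -0.847 to 0.167 without 1 library and was 0.147 when cells of any cluster with 4 or more markers were counted. That in the share of endothelial-like cells with Pf4 ran from -1.70 to 0.319.

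The libraries share only a replicate number, and nothing in the labels says that equal numbers come from the same litter or day. Deviations of same-numbered libraries from their genotype means correlated across genes with r of 0.335 in endothelial-like, 0.551 in megakaryocyte-like and 0.0789 in Runx1-positive cells. With the replicate number as a block, 40, 9 and 0 genes were called in these sets, Pf4 in megakaryocyte-like cells was 0.49 (edgeR adjusted p = 0.0229), Ppbp there 0.35 and Itga2b in Runx1-positive cells -0.020. Depth limits Gp1bb, Gp5, Ppbp and Treml1 outside the megakaryocyte-like cluster, where they had few UMIs per library.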

Other observations

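Barcodes left out by the filters also held Pf4. In those with under 1000 genes, 489 to 1099 per library, Pf4 was at 150 and 296 CPM (WT) and 85.5 and 137 CPM (KO). Over all kept cells it was 119 and 110 CPM (WT) and 40.5 and 212 CPM (KO), the higher value only in KO replicate 2. The barcodes with under 1000 genes were above the 3.20 to 10.7 CPM of endothelial-like cells, a class without the megakaryocyte-like cells, in each library. Few of these barcodes had a Pf4 UMI: 30 and 30 (WT) and 5 and 29 (KO), of which 2, 12, 2 and 4 had 10 or more. In those with at least 1000 genes but 10% or more mitochondrial UMIs, 1024 to 2968 per library, it was at 109 and 43.2 CPM (WT) and 4.85 and 21.3 CPM (KO).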
